A study of Mus musculus with 23 samples.

Results

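The genes described here encode the nuclear subunits of the mitochondrial respiratory chain, and they were followed through RNA-seq libraries of osteocyte-enriched cortical bone from mouse tibiae. Members were taken by gene symbol (*Nduf*, *Sdh*, *Uqcr*, *Cox* and *Atp5* subunit genes with *Cyc1* and *Cycs*), with no use of measured values. The rule found 82 genes, the same 82 in both deposited tables, of 15962 genes listed in the 2-week experiment and 15762 in the single-bout experiment. By role, 35 belonged to complex I, 4 to complex II, 10 to complex III and cytochrome c, 14 to complex IV and 15 to complex V, the ATP synthase. *Ndufa4* and its paralog *Ndufa4l2* were kept apart, since the NDUFA4 protein is now placed with complex IV. *Atp5s* and *Atp5sl* carry ATP synthase names but do not encode subunits of any of the 5 complexes (in human their products are DMAC2L and DMAC2, the second a complex I assembly factor). The subunits encoded in mitochondrial DNA and the muscle isoforms *Cox7a1* and *Cox8b* were not analysed here.

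All groups were wild-type male C57BL/6 mice aged 5 months, and each library held RNA from the tibiae of 2 mice. In the 2-week experiment, right tibiae were loaded in axial compression at 8.25 N in repeated bouts over 2 weeks. The groups were L-BAIBA loaded, vehicle loaded, L-BAIBA nonloaded and vehicle nonloaded tibiae, with 3 libraries each. L-BAIBA (L-beta-aminoisobutyric acid, an amino acid metabolite released by contracting muscle) was given in drinking water at 100 mg/kg/day, and vehicle mice drank plain water. In the single-bout experiment, 5 days of L-BAIBA or plain water came before 1 bout of loading at 8.25 N, and the same groups held 3, 3, 2 and 3 libraries. Bones were taken 24 h after the last loading in both experiments. Nonloaded bones were contralateral left tibiae, so a nonloaded bone came from a mouse whose other leg was loaded, and most loaded libraries had a nonloaded partner from the same pair of mice. The bone was flushed of marrow and digested to remove surface cells, which enriches for osteocytes without purifying them.

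Counts assigned to genes were 6368289 to 18318951 per library in the 2-week experiment and 17811949 to 37562527 in the single-bout experiment. The osteocyte markers *Sost*, *Dmp1*, *Mepe*, *Phex* and the rest of a list of 8 were detected in every library, with a summed level of 4424 to 22240 CPM (counts of a gene relative to the scaled total of its library). Neutrophil markers summed to 13431 to 77911 CPM, so marrow transcripts were present in every library. Skeletal muscle markers summed to 23.1 to 60.2 CPM over 13 or 14 genes. The muscle genes *Ckm* and *Myh4* were not analysed here. Members took 0.549% to 0.864% of the counts of a library.

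The respiratory chain is the set of inner-membrane enzymes that carries electrons from NADH and succinate to oxygen and pumps protons, and ATP synthase uses the proton gradient to make ATP. Complex I oxidizes NADH, complex II is succinate dehydrogenase, complex III passes electrons to cytochrome c, and complex IV (cytochrome c oxidase) reduces oxygen. Nuclear subunit genes are transcribed in all cells, many of them under nuclear respiratory factor 1 (NRF1), ETS-family factors (NRF2, also called GABP) and YY1. Osteoblasts differentiating into osteocytes change their use of oxidative and glycolytic metabolism, while osteoclasts are rich in mitochondria and mature erythrocytes have lost them.

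The promoters are shown because shared motifs are the best known common feature of these genes. RefSeq promoters of GRCm38.p6 (250 bases before the start to 50 after it) were matched for 67 of the 82 members, 64 by symbol and 3 by synonym. The NRF1 palindrome (GCGCA followed by TGCGC) was found in 5 of 67 (7.46%), against 0.977% of the promoters of all 27018 genes. The ETS core CCGGAAG, searched on both strands like the others, was in 15 members (22.4%, against 9.12%), and the YY1 core AAGATGGC in 10 (14.9%, against 2.88%). The CCAAT box was in 30 members (44.8%, against 37.9%). None of these motifs contains another. Of the 5 members with the NRF1 palindrome, 3 that are described among the results are printed with the palindrome in capitals, and *Cox6b2* is printed because its level stood apart in the 2-week experiment. Its window held no such palindrome. Positions are on the strand of the gene, with *Atp5g2* at chr15:102670998-102671297 (minus), *Cox6a1* at chr5:115348909-115349208 (minus), *Uqcrc1* at chr9:108936398-108936697 (plus) and *Cox6b2* at chr7:4753045-4753344 (minus).
Atp5g2: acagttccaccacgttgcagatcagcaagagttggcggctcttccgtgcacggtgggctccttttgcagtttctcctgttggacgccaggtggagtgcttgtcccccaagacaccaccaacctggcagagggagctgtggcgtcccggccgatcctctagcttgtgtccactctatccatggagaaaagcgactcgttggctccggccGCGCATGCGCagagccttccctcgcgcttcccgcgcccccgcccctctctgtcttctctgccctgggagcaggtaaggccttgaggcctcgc
Cox6a1: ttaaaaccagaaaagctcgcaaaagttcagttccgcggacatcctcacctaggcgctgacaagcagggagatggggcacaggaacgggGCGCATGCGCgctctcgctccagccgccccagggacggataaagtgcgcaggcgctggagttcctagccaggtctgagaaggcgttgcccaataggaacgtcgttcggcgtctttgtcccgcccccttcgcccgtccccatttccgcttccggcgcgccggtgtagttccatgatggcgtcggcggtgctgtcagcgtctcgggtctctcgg
Uqcrc1: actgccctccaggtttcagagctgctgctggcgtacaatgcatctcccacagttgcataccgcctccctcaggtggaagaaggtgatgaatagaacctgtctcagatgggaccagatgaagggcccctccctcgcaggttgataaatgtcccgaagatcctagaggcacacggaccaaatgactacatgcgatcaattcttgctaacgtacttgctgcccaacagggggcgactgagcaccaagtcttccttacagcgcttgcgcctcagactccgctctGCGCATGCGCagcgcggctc
Cox6b2: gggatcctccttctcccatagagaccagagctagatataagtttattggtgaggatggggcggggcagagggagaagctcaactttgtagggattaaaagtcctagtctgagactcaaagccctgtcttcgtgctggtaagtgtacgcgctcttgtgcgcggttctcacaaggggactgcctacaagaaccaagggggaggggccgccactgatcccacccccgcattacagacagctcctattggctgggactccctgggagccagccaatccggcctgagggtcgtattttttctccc
The palindrome began 42 bases before the start in *Atp5g2*, 162 bases before it in *Cox6a1* and 31 bases after it in *Uqcrc1*. A match describes letters in the window, and binding was not measured.

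Levels per exon length differed widely within the chain. *Atp5b*, the catalytic beta subunit of ATP synthase, was highest in both experiments, at 369 ± 42.04 CPM per kb (SD, n = 12 libraries) in the 2-week and 354 CPM per kb in the single-bout experiment. *Cox4i1*, the ubiquitous isoform of a regulatory complex IV subunit, followed at 287 and 262 CPM per kb. *Cox6a1* came next in the 2-week experiment at 265 CPM per kb, and *Atp5h*, the peripheral stalk subunit d, in the single-bout experiment at 253 CPM per kb. The ranges of *Cox4i1* and *Atp5b* over libraries overlapped in both experiments. At the low end stood *Cox6a2*, the heart and muscle isoform of subunit VIa, at 3.29 CPM per kb in the 2-week and 2.43 CPM per kb in the single-bout experiment. *Atp5s* was at 4.72 and 4.99 CPM per kb and *Atp5sl* at 7.95 and 7.49 CPM per kb. The testis isoform *Cox6b2* reached 20.1 and 20.3 CPM per kb, above somatic *Cycs* (16.9 in each). Reads that also fit another place in the genome were not counted, so genes with near-identical processed pseudogenes, common in this family, may be understated.

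**Figure D1:**
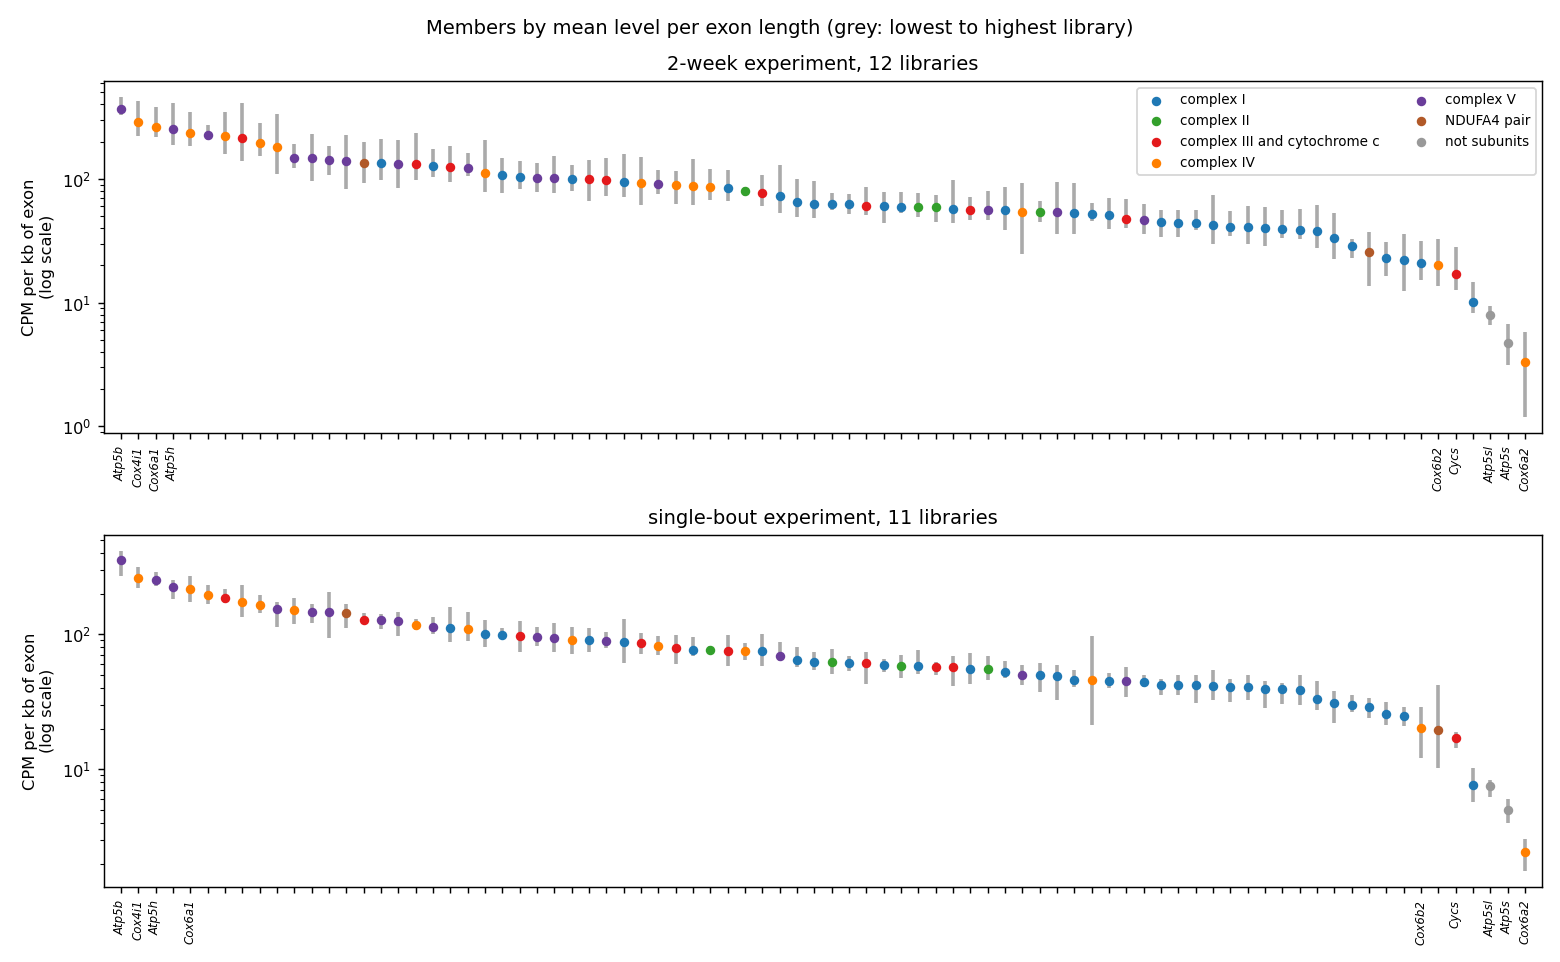
Mean level of each of the 82 members in CPM per kb of exon (log axis) in the 2-week (12 libraries) and single-bout (11 libraries) experiments, ordered from high to low, with the genes named in the text labelled; colors mark the complex and grey lines run from the lowest to the highest library. Atp5b led at 369 and 354 CPM per kb, and Cox6a2 was lowest at 3.29 and 2.43.

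The members moved largely together from library to library. Their summed level in the 2-week experiment was 7230, 6104 and 5960 CPM in L-BAIBA loaded tibiae, 5459, 6142 and 5994 CPM in vehicle loaded tibiae, 8479, 5875 and 6158 CPM in L-BAIBA nonloaded tibiae, and 7975, 8070 and 6156 CPM in vehicle nonloaded tibiae. The libraries that stood high were vehicle nonloaded 1 and 2 and both bones of 1 L-BAIBA mouse pool (loaded 1 and nonloaded 1). The libraries of that pool had the lowest assigned counts of the 2-week experiment, at 6368289 and 6632189. In the single-bout experiment the sums were 6570, 7270 and 6293 CPM in L-BAIBA loaded, 5398, 6413 and 6680 CPM in vehicle loaded, 5897 and 6278 CPM in L-BAIBA nonloaded, and 6182, 5470 and 6558 CPM in vehicle nonloaded tibiae. L-BAIBA loaded 2 was the highest of these libraries.

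**Figure D2:**
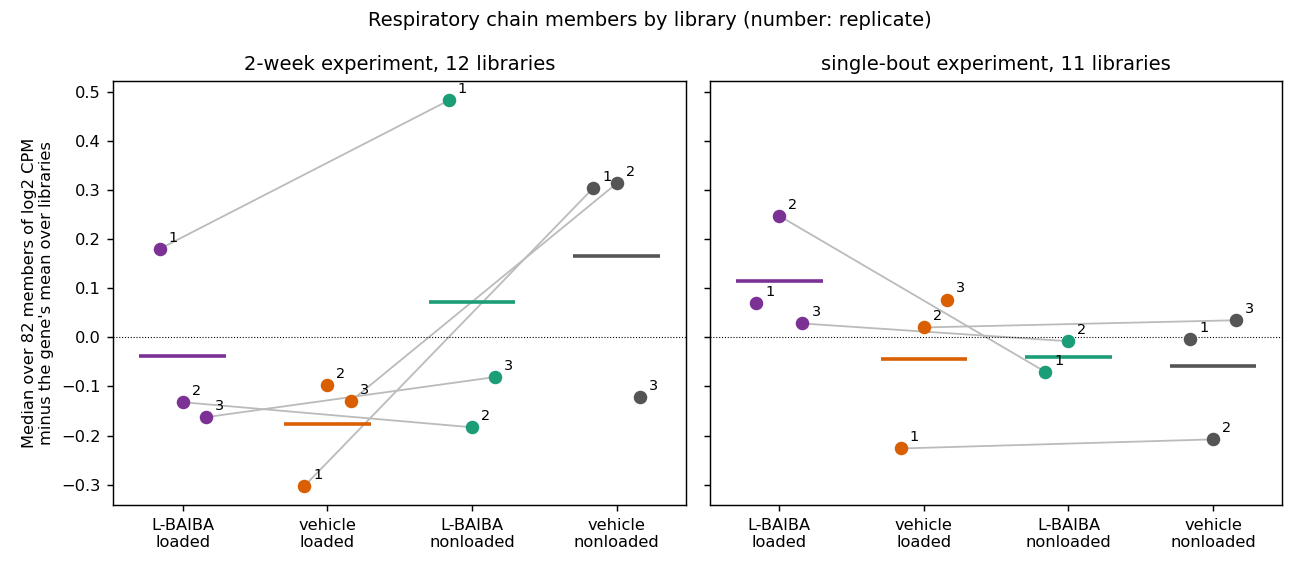
For each library, the median over the 82 members of log2 CPM minus the gene's mean over the libraries of that experiment; points are libraries with replicate numbers, thick bars group means, and grey lines join bones of the same mouse pool. In the 2-week experiment L-BAIBA nonloaded 1 (0.48) and vehicle nonloaded 1 and 2 (0.30 and 0.31) lie above the 3 vehicle loaded libraries (-0.30, -0.10 and -0.13).

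Loading in vehicle mice over 2 weeks asks what sub-optimal load alone does to the bone. Estimates were below 0 (lower in loaded bone) for 80 of 82 members and above 0 for 2, where 51.5% of all genes lay above 0. The members' median log2 fold change was -0.37 (lowest -0.84, highest 0.60), the comparable median being 0.01 over all 15576 genes tested and -0.20 over other genes with under 1500 exon bases. No member passed an adjusted p of 0.05 by edgeR, DESeq2 or limma-voom, and the smallest edgeR adjusted p of a member was 0.47. By edgeR 0% of all genes passed it in this or any of the other 11 comparisons. At an unadjusted p under 0.05, 18 members were lower (22.0%, against 4.01% of all genes) and 0 were higher (against 6.16% of all genes) by edgeR. At that p 21 were lower by DESeq2 (against 5% of all genes) and 20 by limma-voom (against 4.86%). In 28 members (34.1%, against 9.74% of all genes) every vehicle loaded library lay below every vehicle nonloaded library, and in 0 did every one lie above (against 8.08%).

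The lower estimates spread over all complexes. In complex I, 35 of 35 members were lower (median -0.38, 10 at an unadjusted p under 0.05), in complex II 4 of 4 (median -0.27, 0 at that p), in complex III with cytochrome c 10 of 10 (median -0.37, 2), in complex IV 13 of 14 (median -0.42, 4) and in complex V 15 of 15 (median -0.33, 1). *Ndufv2*, an iron-sulfur core subunit of the NADH-oxidizing arm of complex I, was at 55.3, 60.5 and 66.4 CPM in vehicle loaded tibiae, against 80.8, 86.3 and 78.1 CPM in vehicle nonloaded tibiae. The groups did not overlap, and the log2 fold change was -0.43 ± 0.15 (SE; unadjusted p = 0.014, edgeR adjusted p = 0.47). *Ndufa8*, an accessory subunit of complex I, was at 32.8, 34.7 and 41.4 CPM in vehicle loaded tibiae and 58.3, 54.9 and 42.6 CPM in vehicle nonloaded tibiae. These groups did not overlap either, though the nearest libraries, at 41.4 and 42.6 CPM, were close (log2 fold change -0.52 ± 0.19). *Ndufv1*, which binds NADH, gave -0.29 ± 0.13 and *Ndufs1*, the largest iron-sulfur subunit, -0.18 ± 0.15.

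In complex II, *Sdha*, the flavoprotein that oxidizes succinate, was at 208, 224 and 219 CPM in vehicle loaded tibiae against 245, 233 and 237 CPM in vehicle nonloaded tibiae. The 3 loaded libraries were all lower, but the difference of -0.13 ± 0.13 was about the size of its standard error. *Sdhb*, the iron-sulfur subunit, gave -0.34 ± 0.17, *Sdhc* -0.24 ± 0.14 and *Sdhd* -0.30 ± 0.16. In complex III, *Uqcrc1*, a core protein facing the matrix, was at 122, 110 and 123 CPM in vehicle loaded tibiae and 143, 177 and 138 CPM in vehicle nonloaded tibiae (-0.37 ± 0.15), without overlap. *Cyc1*, cytochrome c1, gave -0.30 ± 0.15, *Uqcrfs1*, the Rieske protein, -0.31 ± 0.18 and *Cycs*, cytochrome c itself, -0.37 ± 0.27.

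In complex IV, *Cox5a* (-0.42 ± 0.19), *Cox6b1* (-0.56 ± 0.24) and *Cox7a2* (-0.54 ± 0.25) had an unadjusted p under 0.05, while *Cox4i1* (-0.37 ± 0.25), *Cox6a1* (-0.34 ± 0.22) and *Cox8a* (-0.32 ± 0.24) did not. *Cox4i1* was at 169, 213 and 186 CPM in vehicle loaded tibiae and 284, 267 and 183 CPM in vehicle nonloaded tibiae, and the third nonloaded library lay among the loaded ones. *Ndufa4* gave -0.56 ± 0.23. In complex V, *Atp5b* was at 613, 639 and 661 CPM in vehicle loaded tibiae and 842, 863 and 661 CPM in vehicle nonloaded tibiae, and again the third nonloaded library was at the level of a loaded one (-0.31 ± 0.16). *Atp5a1*, the alpha subunit, gave -0.22 ± 0.15. The 3 genes for the identical mature c subunit of the rotor ring, *Atp5g1*, *Atp5g2* and *Atp5g3*, gave -0.23 ± 0.21, -0.33 ± 0.19 and -0.25 ± 0.19.

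**Figure D3:**
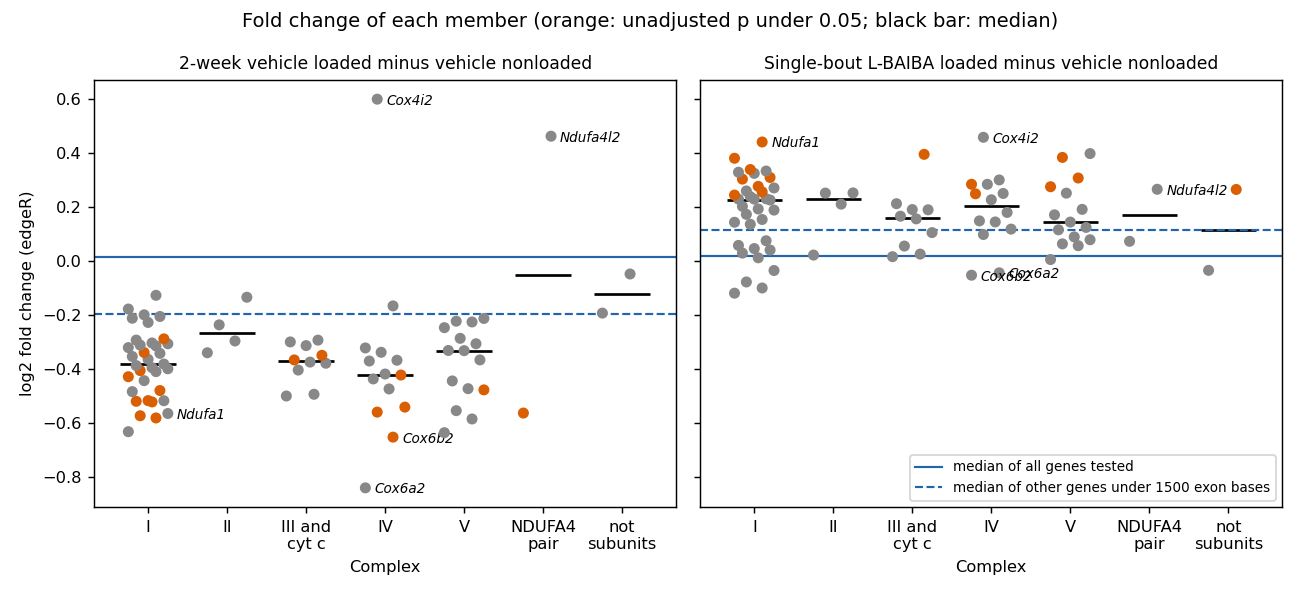
Log2 fold change (edgeR) of each member by complex, for vehicle loaded minus vehicle nonloaded tibiae after 2 weeks (left) and L-BAIBA loaded minus vehicle nonloaded tibiae after a single bout (right); orange points have an unadjusted p under 0.05, black bars are medians, and blue lines are medians of all genes tested (solid) and of other genes under 1500 exon bases (dashed). All complex I, II, III and V members lie below 0 at left, while Cox4i2 (0.60) and Ndufa4l2 (0.46) lie above it.

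The 2 members above 0 are paralogs of restricted or oxygen-dependent expression. *Cox4i2*, an isoform of subunit IV found in lung and in pericytes, was at 38.1, 63.02 and 26.3 CPM in vehicle loaded tibiae and 21.3, 30.97 and 32.04 CPM in vehicle nonloaded tibiae (0.60 ± 0.41, unadjusted p = 0.16). *Ndufa4l2*, a target of hypoxia-inducible factor also known from pericytes, was at 27.5, 35.03 and 16.9 CPM in vehicle loaded tibiae and 13.7, 23.3 and 20.7 CPM in vehicle nonloaded tibiae (0.46 ± 0.33). Both pairs of groups overlapped. Pericyte markers summed to 992, 1201 and 634 CPM in vehicle loaded tibiae against 570, 529 and 597 CPM in vehicle nonloaded tibiae, and of 7 markers 6 were higher and 1 lower (median 0.45, 5 higher at an unadjusted p under 0.05). Of all genes tested, 6.16% were higher at that p. In the single-bout experiment *Cox4i2* was at 70.8, 31.9 and 25.01 CPM in vehicle loaded tibiae and 41.9, 19.7 and 15.6 CPM in vehicle nonloaded tibiae, and *Ndufa4l2* at 40.8, 16.8 and 13.96 CPM against 25.4, 13.04 and 9.85 CPM. In both genes the first library of each of these groups was highest, as it was for the pericyte sum (633, 572 and 426 CPM in vehicle loaded, 563, 442 and 469 CPM in vehicle nonloaded tibiae). The part of pericyte content in these values was not tested.

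Other measures moved with the 2-week difference. Cytosolic ribosomal protein transcripts summed to 28307, 33670 and 29150 CPM in vehicle loaded tibiae and 44435, 41956 and 31492 CPM in vehicle nonloaded tibiae, and 78 of 80 had lower estimates (median -0.36, 0 at an unadjusted p under 0.05). The 4 libraries with the highest member sums were the 4 with the highest ribosomal protein sums. Both groups of genes are short, with a median exon length of 746.5 bases for the members against 2827 bases for all genes. In an alternative fit, the trend on exon length of log2 CPM minus the gene's mean over libraries was removed from each library. All genes kept, the members among them, entered that trend. The members' median was then -0.15, and 1 member was lower at an unadjusted p under 0.05 (against 3.15% of all genes). At that p 1 was higher (against 4.18%), and 19 had estimates above 0. Neutrophil markers summed to 13431 to 21410 CPM in vehicle loaded and 20472 to 32502 CPM in vehicle nonloaded tibiae (13 of 13 lower, 6 at an unadjusted p under 0.05), with none of the 13 at 0 in any library. Erythroid markers summed to 2354 to 4295 CPM in vehicle loaded tibiae against 4841 to 5811 CPM in vehicle nonloaded tibiae (6 of 6 lower, 4), and cycling-cell markers to 2509 to 4306 CPM against 4735 to 4961 CPM (10 of 10 lower, 7). Osteocyte markers summed to 7310 to 22240 CPM in vehicle loaded and 7000 to 7697 CPM in vehicle nonloaded tibiae (8 of 8 higher, 2). Endothelial (5 of 5 higher) and adipocyte markers (6 of 6 higher) had medians of 0.39 and 0.43, and osteoblast (2 of 8 higher), osteoclast (6 of 8 higher) and B-lineage markers (2 of 9 higher) had medians of -0.09, 0.04 and -0.16. Skeletal muscle markers had a median of 0.13. Of all genes tested, 51.5% were higher, and 4.01% were lower and 6.16% higher at an unadjusted p under 0.05. In RNA from bone pieces that hold several cell types, fewer cells of a type and less transcript per cell cannot be told apart. The part of length or of any cell type in the members' difference was not tested. The RNA integrity of each library is not given in the sources used here.

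**Figure D4:**
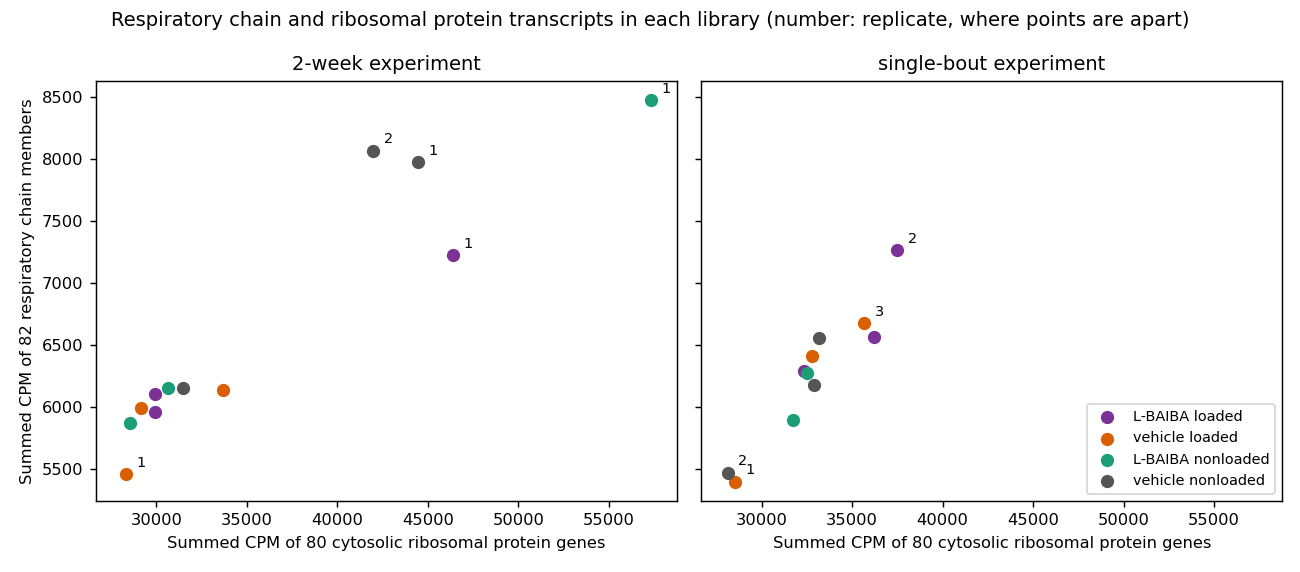
Summed CPM of the 82 members (vertical axis) against summed CPM of 80 cytosolic ribosomal protein genes (horizontal axis), 1 point per library, colored by group. In the 2-week experiment 4 libraries lie at upper right, from 41956 to 57318 ribosomal protein CPM, and the other 8 lie between 28307 and 33670.

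The bones of the same mice gave the difference directly. In the 3 L-BAIBA pools the median over members of log2 loaded minus nonloaded was -0.27, 0.07 and -0.03. Of 82 members 68, 23 and 48 were lower there, against 48.9%, 49% and 48.7% of all genes. In the 2 vehicle pools with both bones the median was -0.57 (78 lower, against 48.8% of all genes) and -0.49 (81 lower, against 49.8%). Over other genes with under 1500 exon bases it was -0.21, 0.05 and -0.03 in those L-BAIBA pools, and -0.27 and -0.28 in the vehicle pools. When the pool entered limma-voom as a random block, 58 members were lower at an unadjusted p under 0.05 in loading in vehicle mice (against 9.24% of all genes). With the pool as a fixed block in edgeR, 68 were lower at that p (against 7.54%). That fit rests on the 2 vehicle pools with both bones, so vehicle loaded 2 and vehicle nonloaded 3 do not enter its estimate. No member passed the adjusted p under either block. With block and length trend together, 8 members were lower at that p (against 6.40% of all genes; median -0.16). Without a block, the count of 18 varied with single libraries. It was 2 without vehicle loaded 1 (against 2.58% of all genes), 11 without vehicle loaded 2 (against 1.36%), 3 without vehicle nonloaded 2 (against 1.62%), 4 without vehicle nonloaded 1 (against 2.59%) and 39 without vehicle nonloaded 3 (against 5.23%). Without L-BAIBA nonloaded 1, which enters this comparison only through the shared estimate of spread, it was 38 (against 5.50%).

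L-BAIBA without load was set against the same 3 vehicle nonloaded libraries, as was L-BAIBA with load, so the 2-week comparisons with that group share their controls. For L-BAIBA in nonloaded tibiae, 64 of 82 members were lower and 18 higher (49.5% of all genes were higher), with a median of -0.09 (all genes -0.01). By edgeR 4 were lower at an unadjusted p under 0.05 (4.88%, against 3.86% of all genes) and 0 higher (against 5.37%). At that p 6 were lower by DESeq2 (against 4.27% of all genes) and 4 by limma-voom (against 4.13%). With any of these tools 0 passed the adjusted p. In L-BAIBA nonloaded tibiae 7 members (8.54%) lay wholly below, near the 9.46% of all genes, and 2 (2.44%) wholly above (against 8.08%). Single libraries decided the median. Without L-BAIBA nonloaded 1 the median was -0.35, with 79 lower and 22 at an unadjusted p under 0.05 (against 3.37% of all genes), without L-BAIBA nonloaded 2 it was 0.07 with 48 higher, and without L-BAIBA nonloaded 3 it was -0.01. Without vehicle nonloaded 3 it was -0.20 with 8 lower at that p (against 3.33%), without vehicle nonloaded 1 -0.06 and without vehicle nonloaded 2 -0.04 with 1 (against 1.36%). Scaling by library totals gave -0.02, with a median of 0.06 over all genes. *Cyc1* was at 60.8, 70.2 and 65.3 CPM in L-BAIBA nonloaded and 83.0, 103 and 72.0 CPM in vehicle nonloaded tibiae (-0.39 ± 0.15). *Uqcrc1* gave -0.40 ± 0.15, and both were without overlap.

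For the 2-week combination, 78 of 82 members were lower in L-BAIBA loaded than in vehicle nonloaded tibiae and 4 higher (against 49.5% of all genes, median -0.22, all genes -0.00). By edgeR 2 were lower at an unadjusted p under 0.05 (2.44%, against 0.976% of all genes) and 0 higher (against 0.905%). At that p 3 were lower by DESeq2 (against 0.976% of all genes) and 2 by limma-voom (against 1%). With edgeR, DESeq2 or limma-voom 0 passed the adjusted p. Without vehicle nonloaded 3 the median was -0.34 and 13 were lower at that p (against 1.81%), without L-BAIBA nonloaded 1, 9 were (against 1.42%), and without L-BAIBA loaded 1 the median was -0.34 with 82 lower and 4 at that p (against 0.809%). With the length trend removed the median was -0.07 and 0 were lower at that p (against 0.469%). *Ndufv1* was at 76.1, 84.6 and 73.3 CPM in L-BAIBA loaded tibiae and 102, 103 and 84.5 CPM in vehicle nonloaded tibiae (-0.30 ± 0.13), with an overlap of 1 library each (84.6 and 84.5 CPM). Among loaded tibiae, 71 of 82 members were higher with L-BAIBA than with vehicle (against 48.5% of all genes; median 0.15, all genes -0.01), 0 in either direction at an unadjusted p under 0.05 by edgeR, DESeq2 or limma-voom (against 0.353% of all genes higher and 1.14% lower), and 10 lay wholly above (12.2%, against 3.49% of all genes). Loading in L-BAIBA mice gave a median of -0.12 with 69 lower and 13 higher (against 51% of all genes). None was at that p in either direction by any of these tools (against 0.648% of all genes higher and 1.03% lower). Without L-BAIBA nonloaded 1 it gave a median of 0.12 with 70 higher, and without L-BAIBA loaded 1, the other bone of that pool, -0.29 with 70 lower. Without L-BAIBA nonloaded 2 it was -0.30 and without L-BAIBA nonloaded 3 -0.23. L-BAIBA among loaded tibiae had a median of 0.03 without L-BAIBA loaded 1 and 0.22 without L-BAIBA loaded 3.

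Whether loading acted differently with L-BAIBA was tested by the interaction. After 2 weeks 78 of 82 members had a positive interaction (against 49.3% of all genes; median 0.27, all genes -0.01). Of these 2 were at an unadjusted p under 0.05 by edgeR (2.44%, against 2.47% of all genes), and 0 were negative at that p (against 4.13%). By DESeq2 4 were positive at that p (against 3.2% of all genes) and by limma-voom 2 (against 2.84%). With any of these tools 0 passed the adjusted p. With pools as a random block in limma-voom 10 reached an unadjusted p under 0.05 (against 7.02% of all genes), and with a fixed block in edgeR 37 (against 5.73%). With the length trend removed the median was 0.12 and 0 reached that p (against 2.72%), and with block and length together 5 were positive (against 6.41%) and 2 negative (against 7.97%) at that p. Without L-BAIBA nonloaded 1 the median was 0.50 and 21 were positive at that p (against 3.56%), and without vehicle nonloaded 3, 8 were (against 2.52%). The median was 0.15 without L-BAIBA loaded 1, 0.11 without L-BAIBA nonloaded 2 and 0.16 without L-BAIBA nonloaded 3.

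*Cox6b2*, the testis isoform of a complex IV subunit at the cytochrome c side, had the smallest unadjusted p of all members in this interaction. The gene lies at chr7:4751792-4753094 on the minus strand (mm10) with 617 exon bases. It was at 10.8, 13.8 and 11.99 CPM in L-BAIBA loaded, 11.2, 8.49 and 12.6 CPM in vehicle loaded, 8.88, 11.6 and 9.22 CPM in L-BAIBA nonloaded, and 16.2, 20.3 and 14.1 CPM in vehicle nonloaded tibiae. The vehicle nonloaded libraries were above all 9 others. Log2 fold changes were -0.65 ± 0.21 for loading in vehicle mice, -0.76 ± 0.21 for L-BAIBA in nonloaded tibiae and -0.46 ± 0.21 for the combination, with an interaction of 0.95 ± 0.30 (unadjusted p = 0.0072, edgeR adjusted p = 0.72). In the single-bout experiment the groups overlapped, at 12.9, 14.9 and 8.03 CPM in L-BAIBA loaded and 11.4, 8.63 and 17.0 CPM in vehicle nonloaded tibiae. Its housekeeping paralog *Cox6b1* did not share the 2-week pattern, with a vehicle nonloaded library (99.8 CPM) below the highest L-BAIBA nonloaded one (176 CPM).

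For a single bout of loading in vehicle mice, the members' estimates lay around 0. The median was 0.02 with 50 higher (against 55.1% of all genes) and 32 lower, against 0.02 over all genes. At an unadjusted p under 0.05, 1 member was higher (1.22%, against 0.858% of all genes) and 0 were lower (against 0.329%). Both vehicle pools with paired bones were close to 0, at -0.02 and -0.01. L-BAIBA for 5 days in nonloaded tibiae gave a median of 0.01, with 47 higher (against 52.1% of all genes), 35 lower, 1 higher at that p (1.22%, against 2.09% of all genes) and 0 lower (against 1.59%). In both comparisons 0 members passed the adjusted p by edgeR, DESeq2 or limma-voom, each of which had 1 higher at the unadjusted p. Scaling moved the members and all genes alike. For loading in vehicle mice the median of members minus that of all genes was 0.0032, against 0.0027 with relative log expression factors and 0.0040 with library totals.

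The single-bout combination set both treatments against neither. Of 82 members, 75 were higher in L-BAIBA loaded than in vehicle nonloaded tibiae (against 52.3% of all genes; median 0.19, all genes 0.02, other genes under 1500 exon bases 0.12). At an unadjusted p under 0.05, 15 were higher (18.3%, against 7.06% of all genes) and 0 lower (against 9.59%) by edgeR. At that p 21 were higher by DESeq2 and 12 by limma-voom, and the shares of all genes by DESeq2 and limma-voom are not given here. No member passed the adjusted p by these tools (smallest edgeR adjusted p 0.24). In 22 members (26.8%, against 9.11% of all genes) the groups did not overlap and L-BAIBA loaded was above. By complex, 31 of 35 were higher in complex I (median 0.22), 4 of 4 in complex II (0.23), 10 of 10 in complex III with cytochrome c (0.16), 12 of 14 in complex IV (0.20) and 15 of 15 in complex V (0.14). Among loaded tibiae, L-BAIBA against vehicle gave a median of 0.15 (all genes -0.04), with 70 higher (against 44.6% of all genes), 10 of them at an unadjusted p under 0.05 (12.2%, against 8.85% of all genes), and 1 lower at that p (against 10%). These counts varied with L-BAIBA loaded 2: without it the combination had a median of 0.11 and 4 higher at that p (against 3.75% of all genes), and L-BAIBA among loaded tibiae a median of 0.08 and 4 higher (against 3.96%). Without vehicle nonloaded 2 the combination had a median of 0.11 and 3 higher (against 5.13%), and without vehicle loaded 1 it had 25 (against 9.16%).

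The members with the smallest p were small membrane subunits. *Ndufa1*, an X-linked subunit of the complex I membrane arm, was at 35.7, 35.9 and 28.6 CPM in L-BAIBA loaded, 21.0, 22.2 and 26.7 CPM in vehicle loaded, 30.3 and 27.1 CPM in L-BAIBA nonloaded, and 26.1, 22.4 and 25.4 CPM in vehicle nonloaded tibiae. L-BAIBA loaded libraries were above both vehicle groups. The log2 fold change was 0.44 ± 0.14 against vehicle nonloaded (edgeR adjusted p = 0.24) and 0.52 ± 0.14 against vehicle loaded tibiae (edgeR adjusted p = 0.17). *Atp5l*, subunit g of ATP synthase, was at 45.1, 39.2 and 36.4 CPM in L-BAIBA loaded and 32.3, 32.9 and 32.4 CPM in vehicle nonloaded tibiae (0.31 ± 0.10), without overlap. *Atp5g2* was at 30.9, 37.1 and 35.7 CPM in L-BAIBA loaded and 25.9, 24.0 and 29.6 CPM in vehicle nonloaded tibiae (0.38 ± 0.13), also without overlap. The other c-subunit genes overlapped between these groups (*Atp5g1* 0.09 ± 0.16, *Atp5g3* 0.19 ± 0.18). *Ndufb11* (0.34 ± 0.13) and *Cox7a2l*, a supercomplex assembly factor (0.28 ± 0.10), were higher at an unadjusted p under 0.05, while *Atp5b* (0.00 ± 0.18), *Sdha* (0.02 ± 0.10) and *Cycs* (0.02 ± 0.11) had estimates near 0.

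DESeq2 was the exception among the tests. For L-BAIBA against vehicle in loaded tibiae after a single bout it called 5 of 82 members at an adjusted p under 0.05. It called 866 of 15500 genes there, a similar share. The 5 members included *Ndufa1* (0.56, DESeq2 adjusted p = 0.0147), *Atp5g2* (0.45, 0.0335), *Ndufb5* (0.34, 0.0397) and *Cox6c* (0.28, 0.0438). *Cox6c* was named after its values were seen. By edgeR and limma-voom 0 passed, and *Ndufa1* had the smallest edgeR adjusted p there of 0.17.

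Loading in L-BAIBA mice after a single bout gave higher estimates in 78 of 82 members (against 49.4% of all genes, median 0.15, all genes -0.00). By edgeR 0 were above 0 at an unadjusted p under 0.05 (against 0.419% of all genes) and 1 below (against 3.02%). By DESeq2 7 were above 0 at that p, and its share of all genes is not given here. In 26 members (31.7%, against 3.72% of all genes) the 3 L-BAIBA loaded libraries lay above the 2 L-BAIBA nonloaded ones. Within pools the median was 0.32 in 1 L-BAIBA pool (75 higher, 7 lower) and 0.03 in the other (49 higher, 33 lower). Of all genes, 48.6% and 53.5% were lower in these pools. With the pool as a random block 6 members were higher at an unadjusted p under 0.05 (against 1.30% of all genes). The interaction had a median of 0.14 (all genes -0.04) with 72 positive (against 42.4% of all genes), and 0.04 when scaled by library totals, where the median of all genes was -0.13. Without L-BAIBA loaded 2 the interaction median was 0.06 and that of loading in L-BAIBA mice 0.08, and without vehicle nonloaded 3 the interaction median was 0.09. At an unadjusted p under 0.05, 0 were positive (against 0.49%) and 1 negative (against 1.52%). For both, 0 members passed the adjusted p by edgeR, DESeq2 or limma-voom.

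Ribosomal protein transcripts and several marker sets moved with the single-bout combination too. Ribosomal protein genes summed to 36210, 37492 and 32336 CPM in L-BAIBA loaded and 32883, 28118 and 33184 CPM in vehicle nonloaded tibiae (79 of 80 higher, median 0.18). Neutrophil markers summed to 33056 to 77911 CPM in L-BAIBA loaded tibiae, highest in replicate 2, and 26943 to 35752 CPM in vehicle nonloaded tibiae (13 of 13 higher, 3 at an unadjusted p under 0.05). Osteoclast markers summed to 3170 to 4022 CPM in L-BAIBA loaded and 2263 to 2480 CPM in vehicle nonloaded tibiae, without overlap (8 of 8 higher, 1). Erythroid markers were at 2205 to 3408 CPM in L-BAIBA loaded and 3916 to 6461 CPM in vehicle nonloaded tibiae (6 of 6 lower, 3). Osteocyte markers were higher in 8 of 8 (median 0.45, 0 at that p). Of all genes tested, 52.3% were higher, and 7.06% were higher and 9.59% lower at that p. Adipocyte markers were lower in 6 of 6 (median -1.22, 2), B-lineage markers in 9 of 9 (median -0.76, 0), cycling-cell markers in 10 of 10 (median -0.38, 1) and skeletal muscle markers in 9 of 14 (median -0.22, 4). Osteoblast markers were higher in 3 of 8 (median -0.11), endothelial in 2 of 5 (median -0.05) and pericyte in 5 of 7 (median 0.15), 0 at that p. Osteoblast markers summed to 6766, 5107 and 43436 CPM in L-BAIBA loaded and 19773, 13784 and 23952 CPM in vehicle nonloaded tibiae. With the length trend removed the members' median was 0.07, and 4 were higher at an unadjusted p under 0.05 (against 7.35% of all genes). The part of these measures in the difference was not tested.

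*Atp5s* and *Atp5sl*, the members that are not subunits, are described apart. *Atp5s* was at 6.87, 6.20 and 6.23 CPM in L-BAIBA loaded, 8.59, 8.55 and 8.93 CPM in vehicle loaded, 8.22 and 8.22 CPM in L-BAIBA nonloaded, and 6.80, 5.94 and 7.02 CPM in vehicle nonloaded tibiae. Either treatment alone was higher than the combination and than vehicle nonloaded, with no overlap. The interaction was -0.75 ± 0.20 (unadjusted p = 0.0032, edgeR adjusted p = 1.0). *Atp5sl* was at 18.2, 19.1 and 19.7 CPM in L-BAIBA loaded, 19.3, 19.3 and 17.2 CPM in vehicle loaded, 20.2 and 20.2 CPM in L-BAIBA nonloaded, and 15.2, 15.8 and 16.4 CPM in vehicle nonloaded tibiae. The 3 vehicle nonloaded libraries were below all others. After 2 weeks *Atp5sl* was at 19.8, 17.8 and 19.3 CPM in L-BAIBA loaded, 22.7, 19.8 and 19.3 CPM in vehicle loaded, 17.3, 16.1 and 16.7 CPM in L-BAIBA nonloaded, and 20.9, 21.8 and 21.2 CPM in vehicle nonloaded tibiae. Both L-BAIBA groups were there wholly below vehicle nonloaded (-0.35 ± 0.14 for L-BAIBA in nonloaded tibiae, unadjusted p = 0.027, edgeR adjusted p = 0.54), the other way round from the single bout. After 2 weeks *Atp5s* overlapped between all groups, at 4.64 to 9.997 CPM in vehicle nonloaded tibiae alone.

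**Figure D5:**
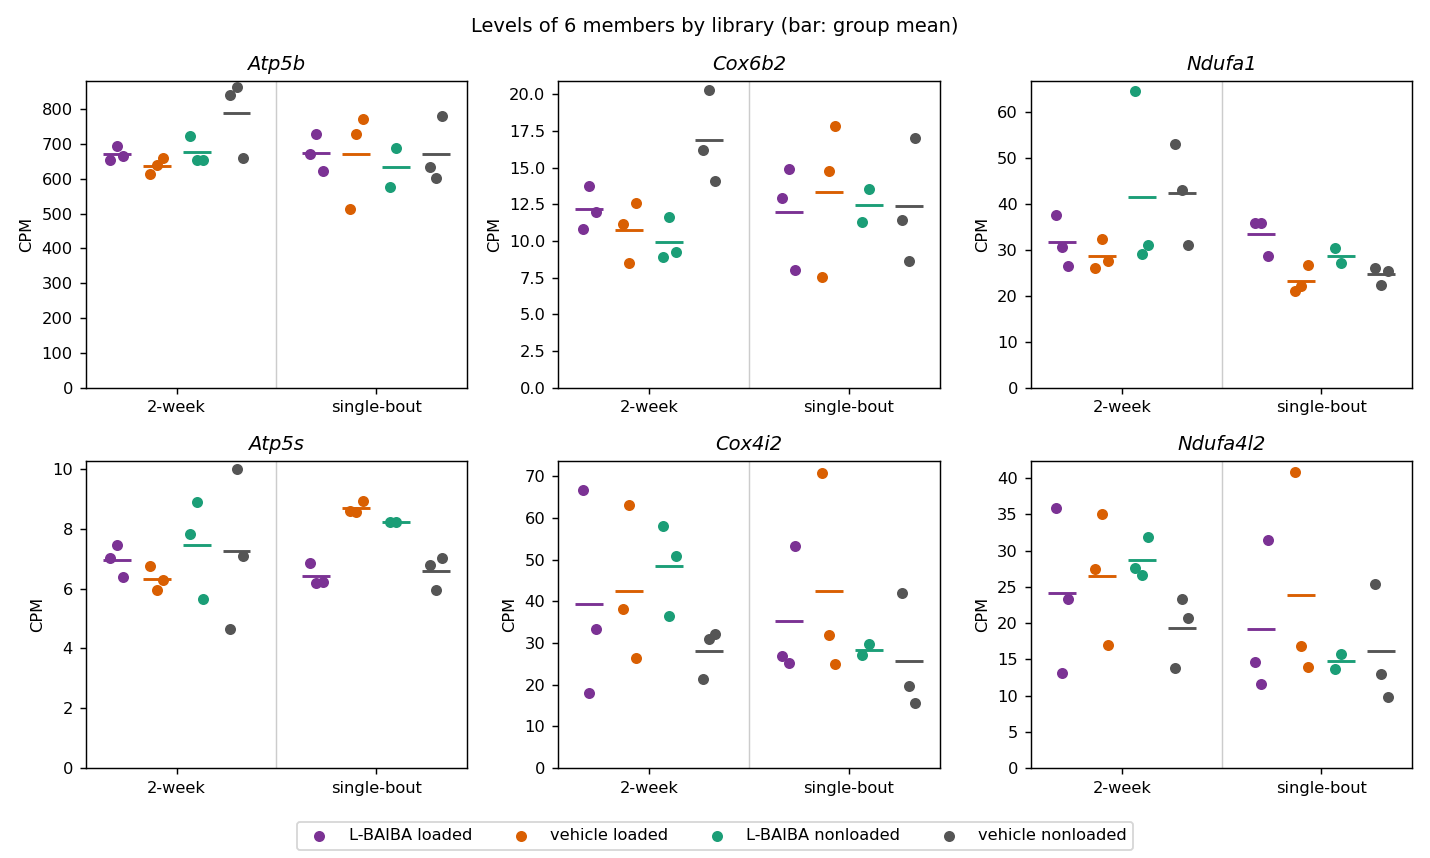
CPM of 6 members in each library of both experiments, colored by group, with bars at group means and axes from 0. Among the 2-week groups Cox6b2 has its highest mean in vehicle nonloaded tibiae (14.1 to 20.3 CPM), and among the single-bout groups Ndufa1 has it in L-BAIBA loaded tibiae (28.6 to 35.9 CPM) and Atp5s in vehicle loaded tibiae (8.55 to 8.93 CPM).

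Other mitochondrial genes were followed from fixed lists. In 2-week loading in vehicle mice, assembly factors of the complexes were lower in 35 of 46 (median -0.24, 4 lower at an unadjusted p under 0.05), and tricarboxylic acid cycle and pyruvate dehydrogenase genes in 16 of 17 (median -0.16, 1). Carriers and pores of the mitochondrial membranes were lower in 8 of 10 (median -0.27, 3). Regulators of biogenesis, among them the genes for PGC-1 coactivators, NRF1 and TFAM, were split, 10 higher and 9 lower (median 0.01, 0 at that p). Of all genes tested, 51.5% were higher, and 4.01% were lower and 6.16% higher at that p. In the single-bout combination 28 of 46 assembly factors were higher (median 0.05, 4 higher and 1 lower at that p), as were 12 of 17 tricarboxylic acid cycle genes (median 0.02, 0) and 6 of 10 carriers (median 0.09, 2 higher and 1 lower). Biogenesis regulators were higher in 7 of 18 (median -0.09, 1 higher and 3 lower). Of all genes tested in this comparison, 52.3% were higher, and 7.06% were higher and 9.59% lower at that p. No gene on these lists passed the adjusted p by edgeR in either comparison.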

How the data were processed

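Poly(A) RNA was sequenced as stranded paired-end libraries. Per the labels and the methods of the study, the authors aligned reads to mm10 with STAR 2.5.2b and made gene counts of uniquely mapped reads with featureCounts (Subread 1.5.1) on RefSeq genes. The deposited tables hold raw counts per gene, beside log2 fold changes and p-values of the authors' own comparisons, which were not used.

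A CPM above 0.5 was required in at least 4 libraries, which kept 15576 and 15500 genes and all 82 members. Each experiment was fitted alone in edgeR 4.0.16 (R 4.3.3; TMM scaling, quasi-likelihood F test, 4 group means), with Benjamini-Hochberg adjustment over all genes tested. CPM use TMM-scaled library sizes (factors 0.916 to 1.05), and SE is the absolute log2 fold change over the square root of F. Alternatives were other scalings, no filter, DESeq2 1.42.0, limma-voom (limma 3.58.1), mouse pool as a block, exon length trend removed and leaving out each library. Each library pools 2 mice. The main fit treats libraries as independent, so its p-values measure the spread between libraries and ignore the pairing of bones. Paired bones are tied by the mice in the labels. Deviations from group means of same-pool bones correlated at 0.156 to 0.563 over all genes in all 9 pairs (genes are not independent replicates). No test crosses the experiments.

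The members, the gene lists and the markers were chosen with earlier results of these data known. Named members were core subunits, restricted isoforms, in each comparison the 3 with the smallest p and the 2 with the largest change (mean CPM of at least 1), and the 3 highest and 3 lowest per kb. Depth limits the precision of low members most, and intervals cover these libraries only. The values of 1 member are not reported here. Scripts were tested on simulated data.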

Additional observations from a re-analysis of the deposited data

Results flagged for a closer look

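Groups held at most 3 libraries, too few for a test of single libraries against their group. *Cox6b2* after 2 weeks, and *Atp5s* and *Atp5sl* after a single bout, went opposite ways in vehicle and in L-BAIBA mouse pools. The members' median after a single bout differed in sign, but both vehicle pools and the L-BAIBA pool at 0.028 lay close to 0. These values set the loaded bone against the nonloaded bone of the same mice, and the difference in them was not tested. Only named members and the median were searched, and the share of all genes going opposite ways was not counted. After 2 weeks, log2 loaded minus nonloaded *Cox6b2* was 0.24, 0.37 and 0.28 in the 3 L-BAIBA pools, against -0.53 and -0.68 in the 2 vehicle pools. The edgeR interaction over all libraries was 0.95 ± 0.30, with an adjusted p of 0.72. *Cox6b2*, like *Atp5s* after a single bout, had the smallest edgeR interaction p of all members in its experiment. The pool values of both genes come from the same libraries and add no separate support. After a single bout, *Atp5s* differed by -0.40 and -0.40 in L-BAIBA pools, against 0.53 and 0.28 in vehicle pools (edgeR interaction -0.75 ± 0.20, adjusted p = 1.0). *Atp5sl* differed by -0.076 and -0.039 in L-BAIBA pools, against 0.28 and 0.23 in vehicle pools (edgeR interaction -0.32 ± 0.16, adjusted p = 1.0). The median over the 82 members was 0.32 and 0.028 in L-BAIBA pools after a single bout, against -0.024 and -0.011 in vehicle pools. Over other genes with under 1500 exon bases it was 0.14 and -0.011 in those L-BAIBA pools, and 0.044 and 0.011 in the vehicle pools. The L-BAIBA pool at 0.32 holds the library with the highest neutrophil sum (77911 CPM), and its part in that value was not tested.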

How the results depend on the processing

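Over the alternatives, 0 members passed the adjusted p in all 12 comparisons with 1 exception, the 5 members that DESeq2 called for L-BAIBA among loaded tibiae after a single bout. Their share was similar to that of all genes called there. The members' median moved by more than its spread in 2 cases: for L-BAIBA in nonloaded tibiae after 2 weeks it ran from -0.35 (without L-BAIBA nonloaded 1) to 0.068 over leave-outs, and for the single-bout combination it was 0.050 with the replicate block and the exon length trend removed together. In 2-week loading in vehicle mice 63 of 82 members kept their direction in all settings and leave-outs, and in the single-bout combination 48 did. With the length trend removed, *Atp5g1* (0.012), *Atp5g3* (0.048), *Cox6a1* (0.028) and *Cox8a* (0.040) turned positive in 2-week loading in vehicle mice, and with block and length together they were 0.023, 0.022, 0.016 and 0.018. Over leave-outs *Atp5g1* ran from -0.35 to 0.012. In the single-bout combination *Atp5b* was -0.030 with the length trend removed, -0.032 with library totals, -0.013 with the replicate block, -0.047 with block and length, and -0.069 to 0.13 over leave-outs, while *Ndufa4l2* ran from -0.29 to 0.75. In 2-week loading in L-BAIBA mice *Ndufa1* ran from -0.63 to 0.067 and *Ndufa12* from -0.57 to 0.040. The causes were not tested. Counts at an unadjusted p under 0.05 in 2-week loading in vehicle mice were 18 lower (against 4.01% of all genes), 12 with library totals (against 2.59%), 1 with the length trend removed (against 3.15%), 58 and 68 with a random and a fixed block (against 9.24% and 7.54%), and 2 to 39 over leave-outs. For L-BAIBA among loaded tibiae after a single bout, 10 were higher (against 8.85% of all genes), 19 with relative log expression scaling (against 11.1%), 22 by DESeq2 (against 12.1%) and 6 with library totals (against 6.57%). Groups of 2 or 3 libraries limit all comparisons.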

Other observations

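Members had unequal ranges of level over libraries. *Sdha* ranged from 208 to 245 CPM over the 12 libraries of the 2-week experiment and from 206 to 236 CPM over the 11 of the single-bout experiment. *Cycs* ran from 38.8 to 86.2 CPM in the 2-week and from 44.1 to 57.6 CPM in the single-bout experiment. *Uqcrh*, the hinge protein of complex III, ran from 76.4 to 226 CPM in the 2-week and from 92.4 to 118 CPM in the single-bout experiment, with its highest value in L-BAIBA nonloaded 1. Among the muscle and testis isoforms, *Cox6a2* was at 0.778 to 3.79 CPM in the 2-week experiment, against 116 to 202 CPM for its ubiquitous paralog *Cox6a1*.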
